A study of Drosophila melanogaster with 34 samples.

Results

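The regions described here were bound by the ecdysone receptor EcR in Drosophila melanogaster at both of the times at which it was mapped. They were chosen by their measured position: a region listed at 10-11 h was kept when it overlapped a region listed at 30-33 h by 1 bp or more, on arms X, 2L, 2R, 3L, 3R or 4. The rule kept 256 of the 483 EcR regions at 10-11 h, out of 48081 regions in all 18 lists of the series. They are called shared regions here, and the 227 regions at 10-11 h that met no region at 30-33 h are called 10-11 h only regions.

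EcR is a nuclear receptor that binds DNA together with its partner Ultraspiracle and is activated by the steroid hormone ecdysone, whose pulses time moulting and metamorphosis. In the absence of hormone the receptor is known to hold target genes down together with co-repressors, and with hormone it turns on a first set of transcription factor genes that then drive later ones. Histone deacetylases strip acetyl groups off histones, which as a rule goes with lower transcription, CTCF is an insulator protein that takes part in the folding of chromatin, and Caudal is a homeodomain transcription factor that patterns the posterior embryo and acts later in the gut.

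The series used chromatin immunoprecipitation and sequencing (ChIP-seq) in 34 samples, 16 of them input DNA and 18 ChIP samples that each gave 1 list of bound places. Both EcR lists came from whole animals labelled as white prepupae (10-11 and 30-33, read here as hours), with a goat antibody against GFP that pulled down GFP-tagged EcR from y w, VK33 flies. Each pooled 3 libraries and was set against 3 inputs of the strain y; bw cn sp, so chromatin and input differed in strain. The labels record no treatment, and say nothing of the promoter of the tagged gene or of the tissues in which it is made. The signal is an average over all tissues of the animal, and fewer cells with bound EcR cannot be told apart from weaker binding per cell. The 10 deacetylase lists (HDAC1, HDAC3, HDAC4a, HDAC6 and HDAC11, each with list 1 and list 2) came from y; bw cn sp embryos of 0-12 h, with 2 libraries per list and 1 input common to all. The 2 CTCF lists, numbered 200 and 500 in their titles, came from the S2 line, cells grown from late embryos. The 4 Caudal lists came from 0-4 h embryos of y; bw cn sp with an antibody against Caudal, and from 4-8 h embryos, L3 larvae and adult females up to 21 days old carrying cad-GFP, with the same anti GFP antibody as for EcR. No list other than those of EcR was made from pupae, so every overlap below sets pupal EcR regions against chromatin of another stage or a cell line.

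Lists made from several libraries were pooled before deposit, and each list stands for 1 observation. No list holds read counts, so depth is unknown, and no test was made between lists. The 95% Wilson intervals given for shares cover the counting of regions only, and neighbouring regions are not independent of one another. Coordinates are 1-based and follow BDGP release 5. Regions are given without gene names, since the table of genes at hand follows release 6. The track line of the L3 larval Caudal list names EcR, against its labels. The share of the shared regions that met any Caudal list is therefore given with and without it. The median number of lists per shared region was also taken without it. All other counts over several lists include it and were not repeated without it. These are the numbers of lists per region, the regions with no list, the kinds of protein, the sets of lists and the tallies over lists.

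The shared regions made up 53.0% of the 10-11 h list (48.5% to 57.4%). Seen from the later time, 255 of the 478 regions at 30-33 h overlapped a shared region, a share of 53.3% (48.9% to 57.8%). The match was nearly one to one. Of the shared regions 253 met 1 region at 30-33 h and 3 met 2, while 4 regions of the later list spanned 2 shared regions each.

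The positions at both times lay close together relative to the width of the regions. The median distance between midpoints was 48 bp, from 2 to 2627 bp, and 193 of 256 shared regions (75.4%) had midpoints within 100 bp. The starts of all regions fell on a grid of 100 bp on each of the 5 arms with regions at both times, so distances of this size are near the resolution of the lists. The median length in common was 435 bp, or 86.0% of the width at 10-11 h, and 62 shared regions (24.2%) were covered whole at 30-33 h. Midpoints lay over 250 bp apart in 23 shared regions. The widest case was on 2L, where 2L:2196641-2200975 and 2L:2201741-2203875 at 10-11 h both fell into 1 region of 7335 bp at 30-33 h.

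Shared regions differed from the others in the measures that the choice itself bears on, and these are given as a description. Their median width at 10-11 h was 535 bp (quartiles 435 and 835 bp), and that of the 10-11 h only regions was 335 bp (235 and 435 bp). Their median score, a value per region from the authors that is used here only to rank regions within a list, was 8.102 (range 7.425 to 10.18), against 7.606 (7.413 to 8.882) for the 10-11 h only regions. All of the 10 highest regions of the 10-11 h list were shared, as were 49 of the highest 50 and 96 of the highest 100. From the later time 9 of the highest 10, 43 of the highest 50 and 76 of the highest 100 overlapped a shared region. Split by score into 4 classes of like size, the 10-11 h list held 112 shared regions among 120 in class 1, the highest (93.3%), then 71 of 121 in class 2 (58.7%), 47 of 121 in class 3 (38.8%) and 26 of 121 in class 4 (21.5%).

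The order of the shared regions by score was only partly the same at both times. Across the 256 regions Spearman's rank correlation between the scores was 0.492, and between the widths it was 0.513. Of the 50 highest at each time 24 were in common, and of the 10 highest 5. Score and width rose together within 10-11 h (rank correlation 0.842), so the rank at 10-11 h is in large part a rank of width. The same relation was not tested at 30-33 h. The shared regions were wider at 10-11 h in 121 cases, wider at 30-33 h in 91 and of equal width in 44.

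**Figure D1:**
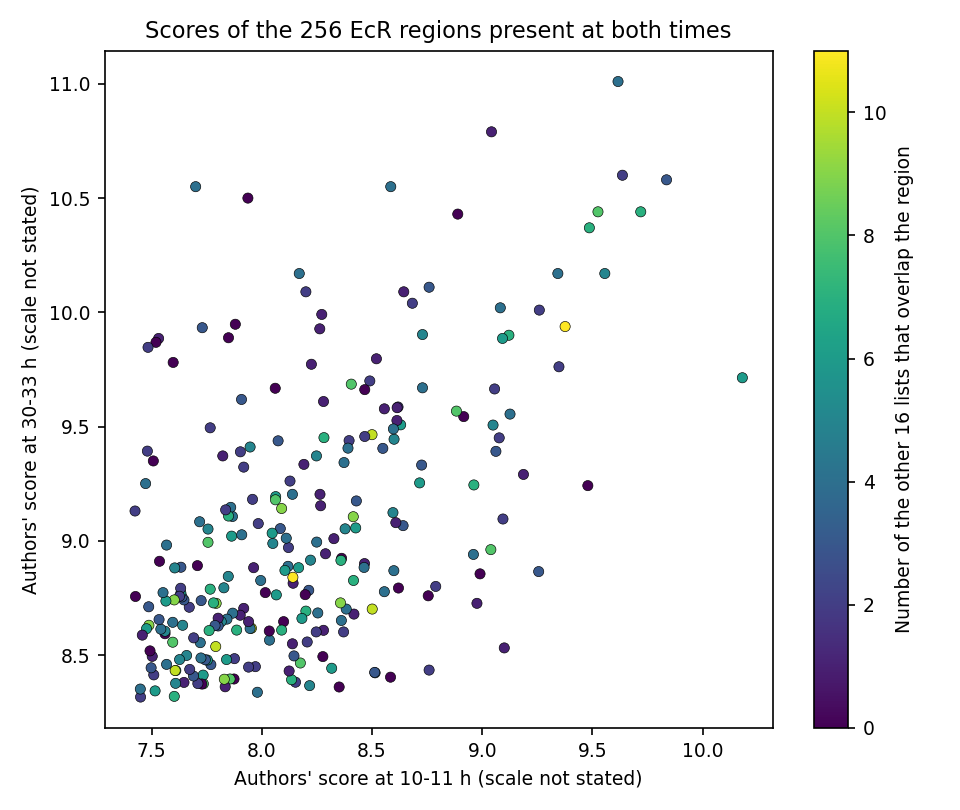
Each point is 1 of the 256 shared EcR regions, with the authors' score at 10-11 h on the horizontal axis and at 30-33 h on the vertical axis (scale not stated), coloured by how many of the 16 deacetylase, CTCF and Caudal lists overlap it. Points spread widely around a rising trend (rank correlation 0.492), and regions with many and with few lists are mixed at all scores.

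The leading regions show how ranks moved between the times. The highest at 10-11 h was 2L:15910641-15912775, with a score of 10.18, and it ranked 39 at 30-33 h. The second, 3L:17964109-17966843, ranked 4 at 30-33 h, and the fourth, 3L:17957409-17958943, ranked 3. The highest at 30-33 h, 2L:6078641-6079575, had a score of 11.01 there and ranked 5 at 10-11 h. By contrast 3L:18000609-18001043 ranked 282 at 10-11 h and lay in the region ranked 6 at 30-33 h, and 3L:16188109-16189143 ranked 9 at 10-11 h and 105 at 30-33 h. Ranks come from 2 lists with different count thresholds, 169.4 at 10-11 h and 310.4 at 30-33 h, and show no change in binding by themselves.

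At the border of the rule, the smallest overlaps inside it were 33 bp at 3R:19704005-19704139 (rank 410 at 10-11 h), 110 bp at X:1860512-1860746 (rank 404) and 133 bp at 3R:5164705-5165139 (rank 265). Just outside lay 3L:566209-566643 with a gap of 12 bp to the nearest region at 30-33 h (rank 334), 3L:17955709-17957243 with 218 bp (rank 118) and 2L:5291441-5291575 with 338 bp (rank 478). In position, most 10-11 h only regions were not near misses. Of the 227, only 6 lay within 500 bp of a region at 30-33 h, 17 within 1000 bp and 71 within 10000 bp, and the median distance was 46963 bp. The 30-33 h list holds nothing below its count threshold of 310.4. Whether these regions had signal under that threshold was not tested.

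The deacetylases came from embryos, and most shared regions overlapped one of their peaks as deposited. Of the 256, 206 (80.5%, 75.2% to 84.9%) overlapped at least 1 of the 10 lists, against 73.3% of all 483 regions at 10-11 h and 65.2% (58.8% to 71.1%) of the 10-11 h only regions. The 10 lists together covered 32.0% of the arm bases. The share rests on the width of the peaks: with each narrowed to 500 bp it was 48.4%, and with midpoints within 250 bp it was 32.4%. These values are for the shared regions only, and the gap to the 10-11 h only regions was not tested at these settings. HDAC1, the class I enzyme also known as Rpd3 and found in several co-repressor complexes, met the most. Its list 2 overlapped 139 shared regions (54.3%, 48.2% to 60.3%), beside 49.9% of all 10-11 h regions and 44.9% of the 10-11 h only regions. Its list 1 overlapped 94 (36.7%, 31.1% to 42.8%), beside 34.4% and 31.7%. In both lists the intervals of the shared and the 10-11 h only regions overlapped. The lists cover 11.7% and 8.36% of the arm bases, well under the shares of either kind of EcR region.

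HDAC6, a deacetylase known mainly from the cytoplasm, gave unlike results in its lists. List 2 overlapped 116 shared regions (45.3%, 39.3% to 51.4%), beside 40.0% of all 10-11 h regions, and list 1 overlapped 39 (15.2%, 11.3% to 20.1%), beside 11.2%. In both lay 26 shared regions, which are 66.7% of those in list 1 and 22.4% of those in list 2. Overlap with lists of other enzymes was as high or higher: 80 shared regions lay in HDAC6 list 2 and HDAC1 list 1 (69.0% of the first and 85.1% of the second), and 28 of the 39 in HDAC6 list 1 (71.8%) were also in HDAC4a list 2. The labels were followed, but counts of HDAC6 and its neighbours are not separate observations.

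For HDAC3, a class I enzyme that works with the co-repressor SMRTER, a known partner of EcR, the shares were near the covered bases. List 1 overlapped 51 shared regions (19.9%, 15.5% to 25.2%), beside 16.4% of all 10-11 h regions, and list 2 overlapped 49 (19.1%, 14.8% to 24.4%), beside 17.0%. These lists cover 14.6% and 15.8% of the arm bases, and the lower end of the interval was just above the first value and below the second. The 2 lists picked out the same regions for the most part, with 43 shared regions in both. HDAC3 peaks are also the widest of the series, with medians of 5295 and 5825.5 bp. Those that met shared regions were 8690 and 9282 bp wide at the median, with midpoints at median distances of 2383 and 2461.5 bp.

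HDAC4a, a class IIa enzyme, overlapped 43 shared regions in list 1 (16.8%, 12.7% to 21.9%) beside 15.5% of all 10-11 h regions. Its list 2 overlapped 42 (16.4%, 12.4% to 21.4%) beside 11.8%, and the 10-11 h only regions stood at 6.61% (4.05% to 10.6%) in that list. HDAC11, the class IV enzyme, overlapped 42 in list 1 (16.4%, 12.4% to 21.4%) beside 12.8%, and 8 in list 2 (3.12%, 1.59% to 6.04%) beside 2.48%. Agreement between the lists of 1 enzyme was low here. In both HDAC4a lists lay 14 shared regions (5.47%, beside 3.73% of all 10-11 h regions), which are 32.6% of those in list 1 and 33.3% in list 2. In both HDAC11 lists lay 2 (0.781% beside 0.414%), which are 4.76% and 25.0%, and list 2 met only 8 shared regions. In both HDAC1 lists lay 79 (30.9% beside 29.2%), which are 84.0% and 56.8%.

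CTCF showed one of the clearer gaps between the kinds of EcR region. The 200 list overlapped 66 shared regions (25.8%, 20.8% to 31.5%), beside 18.4% of all 10-11 h regions and 10.1% (6.85% to 14.7%) of the 10-11 h only regions. The 500 list overlapped 46 (18.0%, 13.8% to 23.1%), beside 13.3% and 7.93% (5.07% to 12.2%). Either list was met by 73 shared regions (28.5%, 23.3% to 34.3%), beside 20.9% and 12.3% (8.67% to 17.2%), and 39 lay in both. The lists cover 5.06% and 3.08% of the arm bases. Of the 73, 28 also met a deacetylase, 39 a deacetylase and Caudal, 1 Caudal, and 5 neither, and of the 28 10-11 h only regions with CTCF the counts were 11, 15, 1 and 1.

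Caudal was met by 130 shared regions (50.8%, 44.7% to 56.8%) in at least 1 of its 4 lists, beside 46.0% of all 10-11 h regions and 40.5% (34.4% to 47.0%) of the 10-11 h only regions. Without the larval list the count was 123 (48.0%, 42.0% to 54.2%). The adult female list gave most of them, with 90 (35.2%, 29.6% to 41.2%) beside 33.3%, from peaks that cover 3.39% of the arm bases. Embryos of 0-4 h followed with 52 (20.3%, 15.8% to 25.7%) beside 17.4%. Embryos of 4-8 h had 23 (8.98%, 6.06% to 13.1%) beside 7.04%, about the 9.18% of the arm bases that this list covers, although it is the longest of the series with 5587 peaks on the arms. The adult and 4-8 h lists came from 1 library each, the 0-4 h list from 2 and the larval list from 3. The adult, 4-8 h and larval lists share the anti GFP antibody with EcR, and the part this plays in the overlaps was not tested.

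The larval list, labelled as Caudal, was met almost only by shared regions among the EcR regions. It overlapped 23 of them (8.98%, 6.06% to 13.1%), beside 5.18% of all 10-11 h regions and 2 of the 227 10-11 h only regions (0.881%, 0.242% to 3.15%), while covering 0.113% of the arm bases. It also overlapped only 2 of the 223 regions found at 30-33 h alone (0.897%). The overlap is a small piece of the larval list, since 24 of its 584 regions met a shared region, and these 24 had larval ranks from 1 to 576. Of the 10 highest larval regions 5 met one, and of the 50 highest 9. Of the 23, 17 were in the highest score class of the 10-11 h list, which held only 8 regions that were not shared. The region ranked 1 at 10-11 h, 2L:15910641-15912775, met the larval region ranked 1, at 2L:15911299-15912133. Those ranked 6 and 7 at 10-11 h met the larval regions ranked 2 and 3. A list of the label Caudal whose track name reads EcR can stand for either protein, and which one was not tested. Of the 23, 16 also met another Caudal list, 19 a deacetylase list and 9 a CTCF list. Over all shared regions the shares were 48.0%, 80.5% and 28.5%, and over all 10-11 h regions 44.3%, 73.3% and 20.9%.

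**Figure D2:**
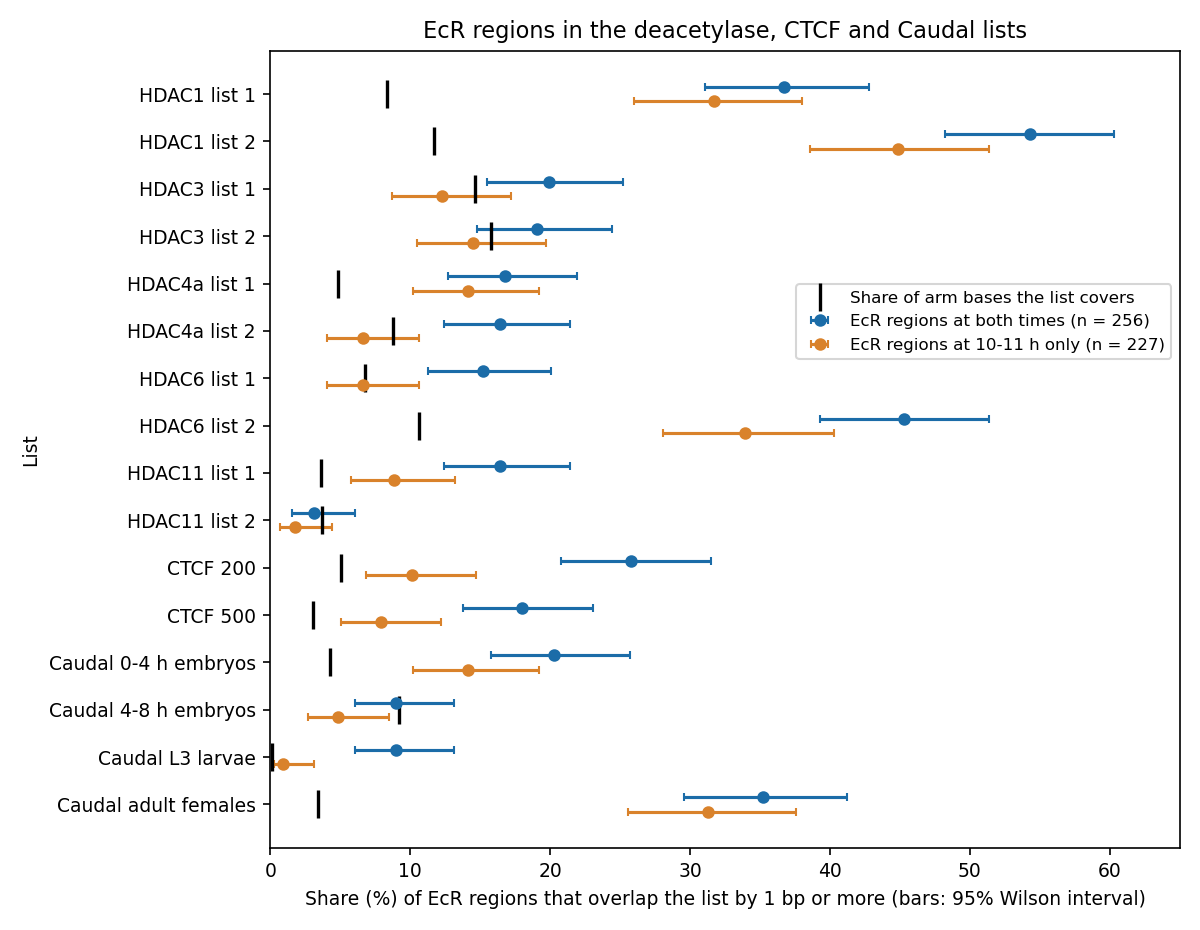
Share of EcR regions that overlap each of the 16 lists, in percent, for the 256 shared regions and the 227 found at 10-11 h only (points, with 95% Wilson intervals as bars), with the share of arm bases that the list covers as a black tick. The shared regions stand higher in every list, and their interval clears that of the others in 5 lists, among them CTCF 200 (25.8% against 10.1%) and Caudal L3 larvae (8.98% against 0.881%).

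In all 16 lists the share was higher for shared regions than for 10-11 h only regions. The intervals were apart in 5 lists, namely HDAC4a list 2, HDAC6 list 1, CTCF 200, CTCF 500 and Caudal L3 larvae, and they met in the other 11. Because several lists hold the same peaks, the 16 comparisons are not independent. The shared regions are wider, so the shares were also taken by the midpoint of the EcR region alone, and the order held in 16 of 16 lists. By midpoint 23.4% of the shared regions and 9.25% of the 10-11 h only regions lay in a CTCF 200 peak, 15.2% and 5.73% in HDAC6 list 1, and 5.08% and 0.881% in the larval list. At larger distances the order did not hold in every list. Within 1000 bp of a peak it was reversed for HDAC4a list 1 (22.3% against 24.2%) and HDAC11 list 2 (4.30% against 4.85%). Within 5000 bp it was reversed for HDAC4a list 1 (39.1% against 40.5%), HDAC11 list 2 (11.7% against 13.2%) and adult Caudal (60.5% against 63.0%). It held in the other lists. Set against the share of bases covered, 13 lists covered less than the interval of the shared regions, and the other 3 (HDAC3 list 2, HDAC11 list 2 and Caudal 4-8 h embryos) lay within it. These measures are unlike, since a region meets a list more readily than a single base does. By midpoint the shares were below the bases covered for HDAC11 list 2 (2.73% and 3.71%) and Caudal 4-8 h embryos (6.25% and 9.18%). They were above in every other list, as with 5.08% and 0.113% for the larval list. The 30-33 h only regions did not always stand lower: 21.5% of them met HDAC4a list 1 and 5.38% met HDAC11 list 2, beside 16.8% and 3.12% of the shared regions.

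The number of lists that a shared region met did not follow its score. Spearman's rank correlation across the 256 was -0.0202 between score and the number of lists, and -0.0003 between width and the number of lists. In score classes 2 and 3 of the 10-11 h list, shared and 10-11 h only regions had the same median widths, 535 bp and 335 bp. There HDAC1 list 2 overlapped 59.2% (47.5% to 69.8%) of the shared regions against 42.0% (29.4% to 55.8%), and 72.3% (58.2% to 83.1%) against 40.5% (30.1% to 51.9%). For CTCF 200 the shares there were 29.6% against 8.00% and 27.7% against 10.8%. In class 1, 42.9% (34.1% to 52.1%) of the shared regions met HDAC1 list 2, lower than in the other classes, and the 8 regions there that were not shared are too few to compare. The larval list went the other way, with 17 shared regions in class 1 and then 3, 2 and 1. In classes 2 to 4 these were 4.23%, 4.26% and 3.85%, against 0.00%, 1.35% and 1.05% of the 10-11 h only regions. The intervals overlapped in each of these classes. Adult Caudal was met by 33.9%, 38.0%, 38.3% and 26.9% of the shared regions from class 1 to class 4, and by 37.5%, 32.0%, 27.0% and 33.7% of the 10-11 h only regions. Over the 16 lists, the share of the shared regions was the higher in 11 lists in class 1, in 14 in class 2, in 16 in class 3 and in 9 in class 4. The 7 that went the other way in class 4 included HDAC1 list 1 (23.1% against 29.5%) and CTCF 500 (7.69% against 9.47%).

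**Figure D3:**
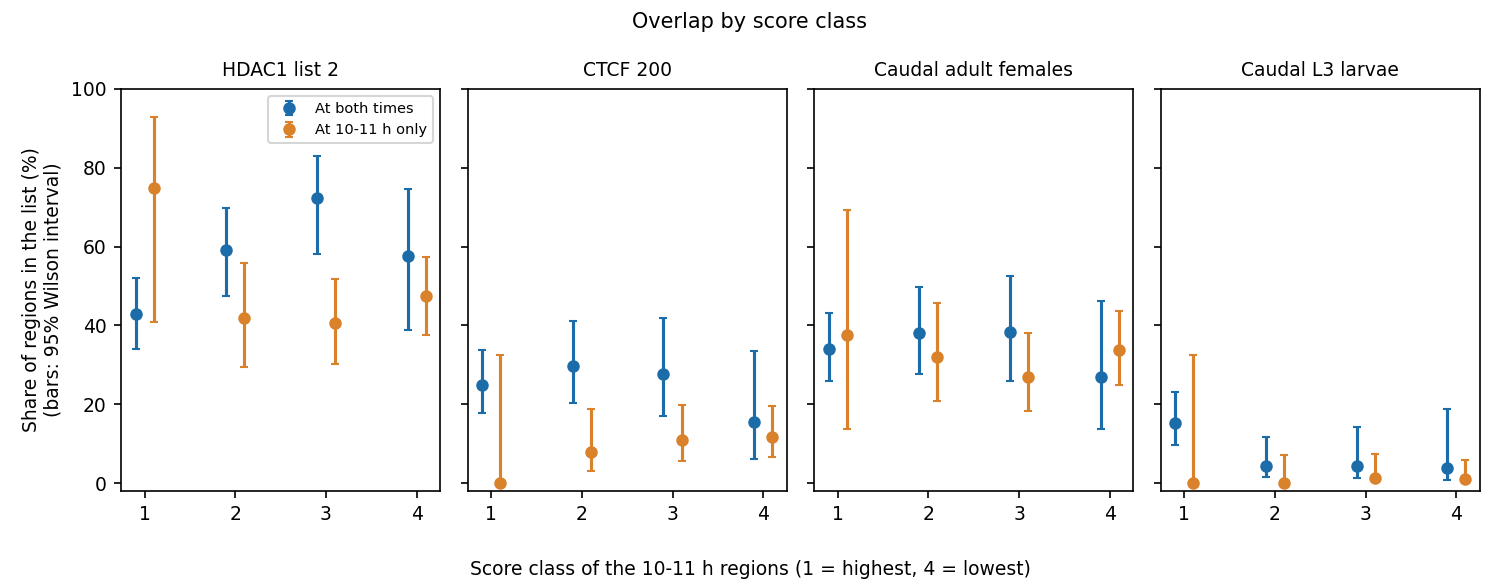
Share of EcR regions that overlap 4 of the lists, in percent, by score class of the 10-11 h list (1 is the highest), for shared regions and for those at 10-11 h only, with 95% Wilson intervals. CTCF 200 is higher for shared regions in every class, HDAC1 list 2 is higher in the lower 3 classes only, and class 1 holds only 8 regions that are not shared.

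A shared region met a median of 3 of the 16 lists (95% interval 3 to 4), and the count ran from 0 to 11. The 10-11 h only regions met a median of 2 (1 to 2). Of the shared regions 82 (32.0%) met 5 or more lists and 24 (9.38%) met 8 or more, where 44 (19.4%) and 8 (3.52%) of the 10-11 h only regions did. At the other end 29 shared regions (11.3%) met none, against 51 (22.5%). By kind of protein, 75 shared regions met deacetylases and Caudal (29.3%, against 22.0% of the 10-11 h only regions) and 39 met deacetylases, CTCF and Caudal (15.2% against 6.61%). Deacetylases alone and Caudal alone went the other way: 64 met deacetylases alone (25.0% against 31.7%) and 15 met Caudal alone (5.86% against 11.5%). The combinations were diverse, with 165 different sets of lists and 136 of these held by 1 region each. The commonest set after none was HDAC1 list 2 alone, with 14 regions.

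**Figure D4:**
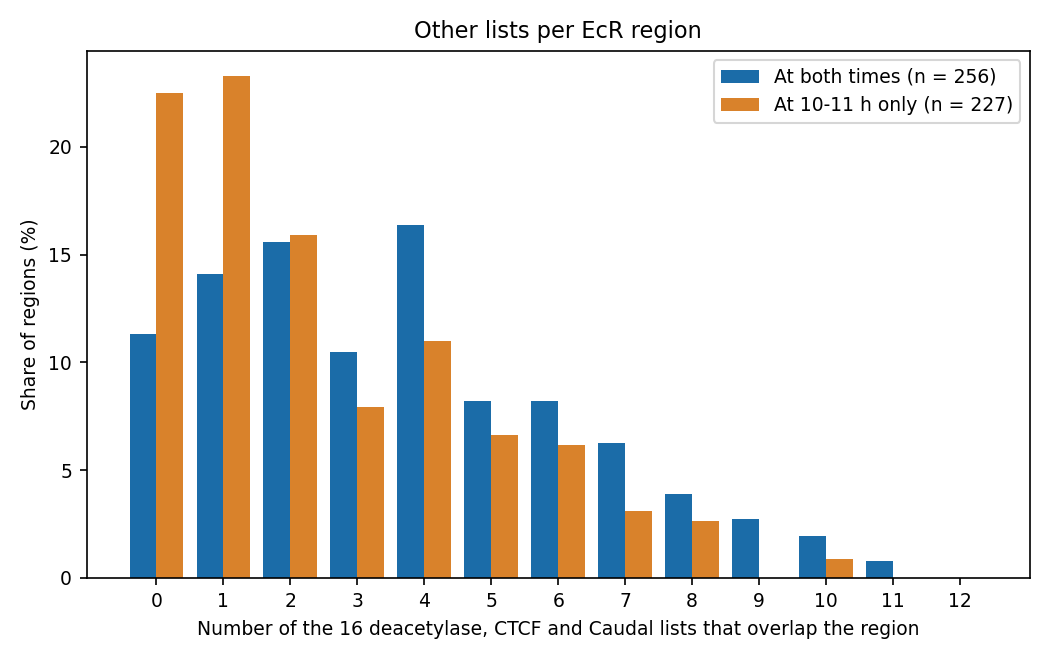
Number of the 16 deacetylase, CTCF and Caudal lists that overlap a region (horizontal axis) and the share of regions with that number, in percent (bars), for the 256 shared regions and the 227 at 10-11 h only. Regions with no list make up 11.3% of the shared and 22.5% of the others, and those with 11 lists are shared.

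The 2 regions with the most lists were 2L:12011641-12012775 and 3L:14778409-14778943, with 11 each. The first ranked 10 at 10-11 h and 21 at 30-33 h, and met HDAC1, HDAC4a, HDAC6 and HDAC11, both CTCF lists and 3 Caudal lists, but no HDAC3. The second ranked 131 and 202, and met both HDAC3 lists and both HDAC1 lists along with CTCF 200. With 10 lists each stood 3L:5763609-5764343, 2L:8161941-8162575, X:3636912-3637646, 3L:16402509-16402943 and 3R:7037105-7037639, and their ranks at 10-11 h ran from 65 to 335. Among the 24 regions with 8 or more lists, 23 met HDAC6 list 2, 22 met HDAC1 list 1 and 22 met CTCF 200. Adult Caudal was met by 12 and the larval list by 5. Over all shared regions the shares in these lists were 45.3%, 36.7%, 25.8%, 35.2% and 8.98%. The 24 were picked by their number of these same lists, so high counts follow from the choice. Their median score of 8.076 was close to that of the 29 regions with no list, 8.034.

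The regions without any list were found at high and low scores. The highest was 3L:16188109-16189143 (score 9.479, rank 9), then 3L:3246109-3248143 (rank 28), 3L:17970809-17971843 (rank 32), 2R:11622449-11623083 (rank 33) and 2R:5435449-5436083 (rank 39). The 2R:11622449-11623083 region ranked 9 at 30-33 h. Of the 29, 12 were in the highest score class of the 10-11 h list, a share like that of all shared regions (112 of 256). They are pupal EcR regions that neither the embryonic nor the S2 cell lists reached, and their median width of 535 bp was that of all shared regions.

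Where a shared region met a peak, how it lay within it differed by list. Of the shared regions in HDAC1 list 2, 136 of 139 were wholly inside the peak, and 92 of 94 in list 1. The peaks they met were wide, with a median of 4526 bp in HDAC1 list 2 where the whole list had 2763 bp. In every list the peaks met had a higher median width than the list as a whole. In HDAC1 list 2 the midpoints lay a median of 800 bp apart. Midpoints were closer for CTCF, at 305 bp in the 200 list and 282 bp in the 500 list, and for adult Caudal, at 190.25 bp with 51 of 90 within 250 bp. For Caudal in 0-4 h and 4-8 h embryos they were 699.75 and 625 bp. They were closest for the larval list, at 71 bp, whose regions are themselves narrow (335 bp at the median among those met). The peaks met were 1606 and 1815.5 bp wide at the median for CTCF 200 and CTCF 500, and 1625.5 bp for adult Caudal. A wider peak allows a larger distance, so these distances do not compare lists of unlike width directly.

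The shared regions were spread over 5 arms and were most frequent on 3L. That arm held 73 of them (28.5%, 23.3% to 34.3%) on 20.4% of the arm bases, beside 27.5% of all 10-11 h regions. The others were 56 on 2L, 48 on 3R, 41 on X and 38 on 2R. Chromosome 4 held no EcR region at 10-11 h. The share of the 10-11 h regions that were shared ran from 44.0% on 3R to 59.6% on 2L. A deacetylase list was met by 37 of the 41 shared regions on X and by 57 of the 73 on 3L. The counts were 44 of 56 on 2L, 30 of 38 on 2R and 38 of 48 on 3R, beside 80.5% of all shared regions.

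Many shared regions stood in groups. Joined when less than 50 kb apart, they formed 164 groups, of which 121 were single regions, 23 were pairs and 20 held 3 or more. Those 20 groups held 89 shared regions (34.8%), where the 10-11 h only regions joined in the same way had 29 (12.8%) in 8 groups, with 7 in the largest. The groups were defined from the positions themselves, and this is a description.

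The largest group held 19 shared regions within 113535 bp at 3L:17957409-18070943, with 5 regions found at 10-11 h only and 7 at 30-33 h only among them. Their scores at 10-11 h ran from 7.532 to 9.836, with ranks from 2 to 392. The group included the regions ranked 2 and 4 at 10-11 h and those ranked 2, 3, 4 and 6 at 30-33 h. HDAC1 list 2 met 11 of the 19, which were the first region of the group, 3 in its middle and the last 7. No peak of HDAC3, HDAC11 or HDAC6 list 1 met any of the 19. Caudal met 4 and CTCF 3, and 4 regions met no list, 3 of these next to each other between 3L:17967909 and 3L:17971843.

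In the group of 19 on 3L 13 regions met a deacetylase, beside 80.5% of all shared regions and 73.3% of all 10-11 h regions. In the group of 9 on X, at X:1835612-1870146, all 9 did. Its first region, X:1835612-1836346, met 8 lists, which were both lists of HDAC1, HDAC4a, HDAC6 and HDAC11. HDAC11 list 1 met 5 of the 9 and HDAC3 none. The neighbours X:1843712-1846546 and X:1846712-1847446 met HDAC4a and both CTCF lists, and the same region at 30-33 h, ranked 12, spanned them both. The group of 6 at 2R:6098549-6126683 had 5 regions with a deacetylase and none with CTCF, and the 5 at 3L:5604709-5627643 had 4 in HDAC1 list 2 and none with Caudal.

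**Figure D5:**
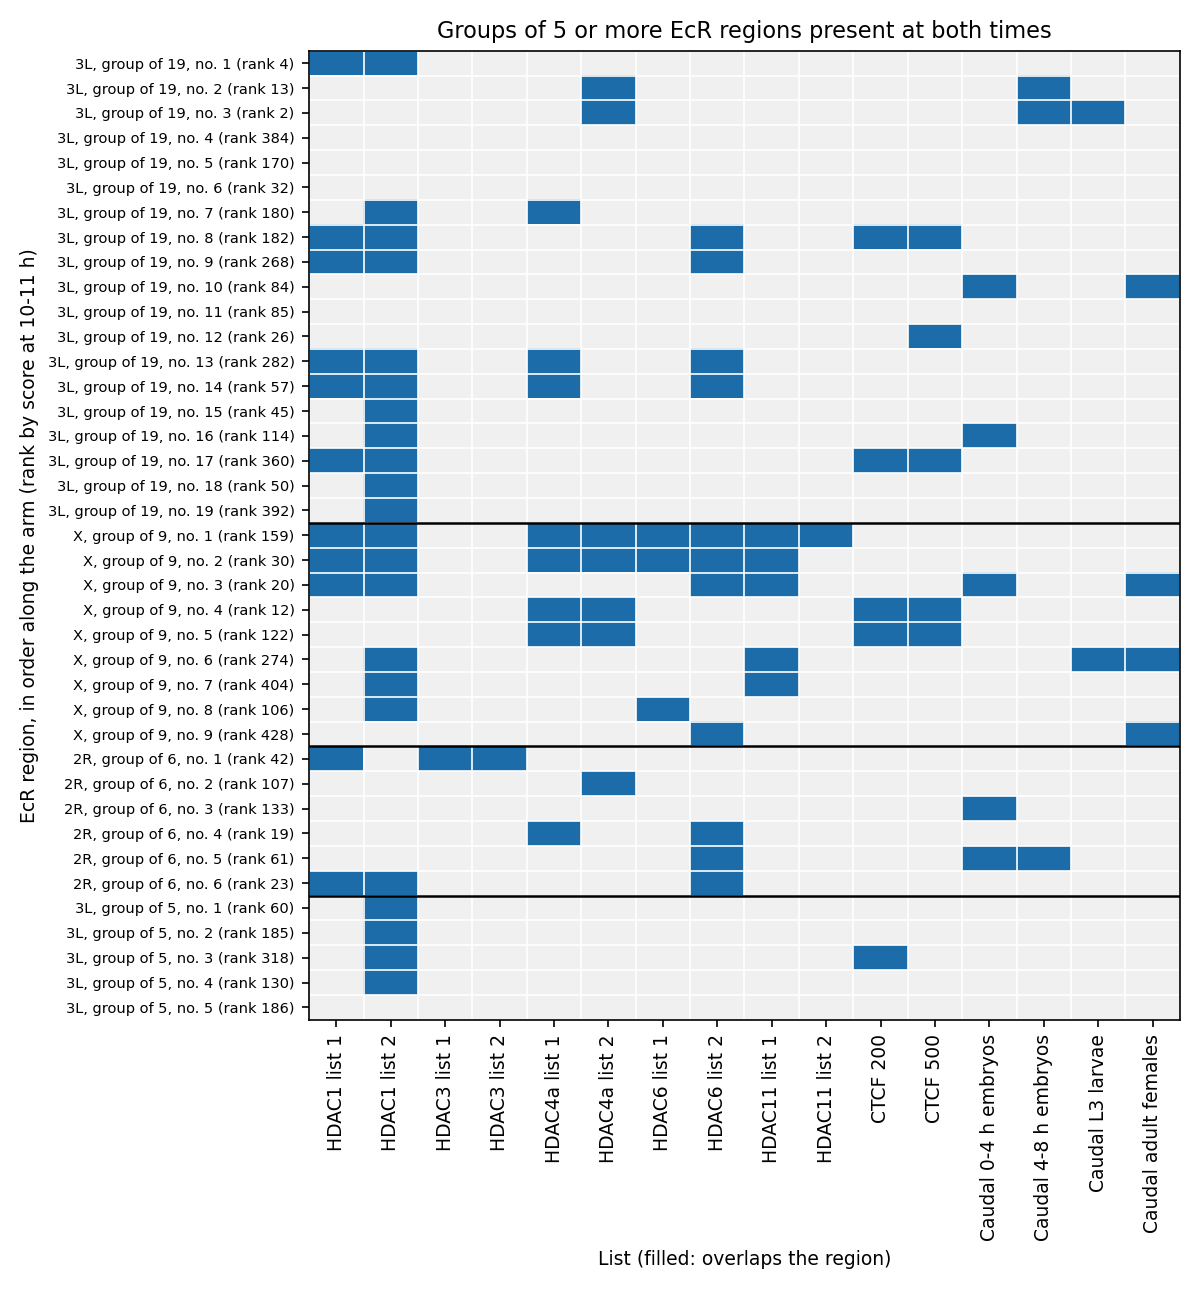
The 39 shared regions in the 4 groups of 5 or more, in order along the arm (rows, with the rank by score at 10-11 h), and the 16 lists (columns); a filled cell marks an overlap of 1 bp or more. HDAC3 lists are filled in 1 row of the 2R group only, and HDAC1 list 2 runs through the later part of the group of 19 on 3L and through 4 rows of the group of 5.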

How the data were processed

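The samples were grouped by antibody, stage or cell line and title. Both EcR lists and the L3 larval list were made by thresholding a density track, per the file headers: at a count of 169.4 (10-11 h), 310.4 (30-33 h) or 133.8 (L3), bridging gaps of up to 100 bp and keeping runs from 100 bp. Their regions come with a score deposited by the authors on an unstated scale. The other 15 deposited lists hold positions only, without heights. Libraries were pooled per the labels (1 to 3 per list), and coordinates are on BDGP release 5, per the submitters' processing notes; which aligner and caller were used is not given in the sources used here.

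Regions on 6 arms were compared with Python 3.11.15, numpy 2.4.6 and scipy 1.17.1 (figures with matplotlib 3.10.9). An overlap was 1 bp or more, and shares carry 95% Wilson intervals for counting error only. The bases an arm holds run from its lowest start to its highest end over all lists. In all, 3 peaks with a start below 0 were used as given. The overlap count was tested on simulated data. Named regions were the 10 highest shared regions at 10-11 h, the 5 highest at 30-33 h, the 10 in the most lists, the 5 highest in no list and 3 on each side of the rule, of which the text gives most; members of groups were named after their values were seen. The shared regions, lists and comparisons were chosen with earlier results of these data known. Alternatives changed the overlap, the peak width, the lists and the units, and 6 of them were chosen after seeing the data. Gene names and motifs need a genome of release 5 and were not analysed here.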

Additional observations from a re-analysis of the deposited data

Results flagged for a closer look

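Outside the arms, which all comparisons use, the EcR list at 10-11 h held 25 regions and that at 30-33 h held 5, with 2 overlaps between them, at 2RHet:471313-471747 and Uextra:19603718-19604252. The mitochondrial genome held 5 of the 25, with scores of 7.621 to 8.267, and the remaining 20 were on heterochromatic and unplaced sequences. They are given here because the comparisons leave these sequences out. The list at 30-33 h had no mitochondrial region, and neither had any of the 16 other lists.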

How the results depend on the processing

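The number of shared regions stayed between 233 and 258 with 50% of the smaller region covered, midpoints within 250 bp, regions under 1000 bp apart joined or all sequences of the build, and was 130 with the upper 50% of each EcR list. The share with any deacetylase moved from 80.5% to 32.4% with midpoints within 250 bp, 64.1% with the widest 50% of each list and 48.4% with peaks narrowed to 500 bp; leaving out 1 list gave 68.8% (without HDAC1 list 2) to 80.5%. For CTCF, 28.5% became 15.2%, 21.5% and 22.3% in the same order, and 18.0% without CTCF 200 and 25.8% without CTCF 500. For Caudal, 50.8% became 28.1%, 41.4% and 36.3%. These settings keep fewer or narrower peaks. Overlap of 50% of the smaller interval, midpoints inside the peak, members in the upper 50% by score and joined regions kept each of these 3 shares within its interval, as did leaving out the group of 19 on 3L, and leaving out the larval list for Caudal (both chosen after seeing the data). The median of 3 lists held with 50% of the smaller interval, midpoints inside the peak, members in the upper 50% by score, joined regions and the larval list left out. It was not taken with midpoints within 250 bp, the widest 50% of each list or peaks narrowed to 500 bp. Per list, midpoints within 250 bp moved 15 of 16 shares, and the midpoint rule moved only the larval one, to 5.08%. No paired analysis was possible because no result comes from a test and each EcR time has 1 list. Depth is unknown.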
